A study of Mus musculus with 66 samples.

Results

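The comparison described here set C2C12 cells in which Paf1 or Cdc73 had been knocked down against cells that had received a control siRNA or an siRNA to Ski8. C2C12 is a mouse myoblast line, and the cells were used as growing myoblasts 48 h after transfection with 50 nM siRNA. The study mapped subunits of the Paf1 complex on chromatin and followed expression and polyadenylation after their depletion, and 7 of its 66 samples enter the RNA-seq comparison. These were chosen by their labels. The 4 libraries with loss of a subunit were siPaf1 of batches 1 and 2 and siCdc73 of batches 1 and 2. The 3 reference libraries were the non-specific control, siCtrl, of batches 1 and 2, and siSki8 of batch 2, so siSki8 had 1 library and no replicate. The batch number was kept as a block in every fit except the alternatives without it, and in batch 1 the reference was a single siCtrl library. Ski8 is listed in the tables by its gene symbol Wdr61. Each of the 9999 genes in the table was taken from its transcript with the most reads on average. A further 7 libraries of the same conditions and batches, made by 3'READS, which sequences the 3' ends of polyadenylated RNA, were compared in the same way.

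The Paf1 complex travels with RNA polymerase II, helps it to elongate through chromatin, and is needed for several histone marks of transcribed genes, among them ubiquitylation of histone H2B. Paf1 and Cdc73 are core subunits of the complex, and Cdc73 is the mouse counterpart of a human tumour suppressor. Ski8 is a WD-repeat protein that also belongs to the Ski complex, a cofactor of the cytoplasmic RNA exosome. The comparison therefore asks which genes moved with both core subunits while siSki8 cells stayed with the control.

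The siRNA targets were examined first. Paf1 was at 107 and 159.8 CPM (reads scaled to a common library total, TMM-normalized) in siCtrl of batches 1 and 2, 179.9 in siSki8 and 264 and 418 in siCdc73, but at 20.3 and 31.1 in siPaf1. Cdc73 was at 109 and 98.4 CPM in siCtrl, 125 in siSki8 and 98.5 and 111 in siPaf1, but only 14.2 and 22 in siCdc73. Wdr61 was at 5.97 CPM in the siSki8 library, against 49.8 and 129 in siCtrl, 107 and 133 in siPaf1 and 98.9 and 152 in siCdc73. The libraries labelled for a gene were the lowest for that gene, and Paf1 was higher in siCdc73 than in siCtrl of the same batch. Across the pooled comparison none of the targets was called (log2 fold changes 0.41, -0.84 and 1.06, edgeR adjusted p = 0.77, 0.373 and 0.317), each being low in a single group, although in a fit with 4 groups Paf1 was at -0.59 (edgeR adjusted p = 0.0130). Gene reads ranged from 2796693 to 8160386 per RNA-seq library, lowest in siPaf1 and siCdc73 of batch 2. Myoblast genes were present, with Cdh15, a muscle cadherin, at 789.9 and 1015 CPM in siCtrl. Of 27 markers of immune, endothelial, fat, epithelial and neuronal cells, 12 were in the table and 3 passed the filter on low counts: Krt8, Krt19 and Stmn2. The other 9 in the table had at most 8 reads in any RNA-seq library. Markers missing from the table cannot be judged by RNA-seq. By 3'READS, 7 of them were tested and none was called, with 1 below 0. Tubb3, a neuronal marker, had 542 and 1574 reads there in siCtrl, 1648 in siSki8, 4171 and 8724 in siPaf1 and 1034 and 1950 in siCdc73. The summed level of Krt8, Krt19 and Stmn2 was 165 and 414 CPM in siCtrl, 1069.9 in siSki8, 498 and 1814 in siPaf1 and 289 and 910.0 in siCdc73. Stmn2 and Krt19 made up most of it, none of the 3 was called between loss and reference by edgeR (2 were higher at an unadjusted p under 0.05, and DESeq2 called 1 higher), and the part these markers play in the results was not tested. Nothing in the labels says whether the numbered libraries came from separate cultures, so p-values measure the spread between these libraries, which may be technical.

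Among 6521 genes that passed the filter, 395 were higher and 451 lower with loss of Paf1 or Cdc73 (edgeR quasi-likelihood test, Benjamini-Hochberg adjusted p under 0.05), which is 6.06% and 6.92% of the genes tested. A gene was counted in the common response when it was called and, within each batch, both the siPaf1 and the siCdc73 library lay on the same side of every reference library. That left 390 raised genes (5.98%) and 450 lowered genes (6.90%). Lack of overlap alone, without the call, was met by 17.0% of the genes tested in the upward and 18.6% in the downward direction. The median log2 fold change was 1.61 over the raised and -1.49 over the lowered genes, beside 0.03 over all genes tested. The call chose these genes, so these medians describe the response and do not test it. Raised genes held fewer reads than lowered genes (a median of 161 and 418 reads per library). For 16 raised genes the reference libraries had no read at all. With these genes at the lower bound that 3 reads over the reference libraries would give, the median stayed at 1.61.

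Over the common genes, the median change was of similar size in every loss library. The rule chose these genes in the same libraries, so this describes them and does not test whether the subunits agree. Raised genes lay above the reference of their own batch, in the median, by 1.36 and 1.66 on the log2 scale in siPaf1 of batches 1 and 2 and by 1.46 and 1.64 in siCdc73. That reference was siCtrl in batch 1 and the mean of siCtrl and siSki8 in batch 2. For lowered genes the medians were -1.30 and -1.56 in siPaf1 and -1.32 and -1.69 in siCdc73. At the threshold, Tex35 (log2 fold change 3.63) and Nol12 (-0.82) were the last genes inside, at adjusted p = 0.0499 and 0.049995, and Sez6l2 (2.52) lay just outside, at 0.0506. Acot12, Ctsf, Glt8d2, Irx3, Lgr5 and Plin2 were called but overlapped the reference within a batch, and are not counted as common. Irx3, a homeobox gene, was at 196 and 202 CPM in siPaf1 but at 15.0 and 24.9 in siCdc73, against 16.8 and 8.07 in siCtrl and 10.2 in siSki8.

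The number of calls fell most when a siCtrl library was left out. With the batch block, batch 1 then has no reference, or batch 2 has only siSki8, so the fall does not tell what the siCtrl values themselves contribute. Of the 840 common genes, 171 were still called without siCtrl of batch 1 and 274 without siCtrl of batch 2. Without siSki8, 435 of the 826 genes still tested were called, and without any 1 loss library between 601 and 685 were called.

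Slc23a3, Ercc6l2 and Ngef mark the response. Slc23a3 belongs to the family of ascorbate and nucleobase transporters. It was at 1.54 and 1.01 CPM in siCtrl and 1.46 in siSki8 (11, 6 and 10 reads), and at 22.9 and 47.8 in siPaf1 and 36.4 and 41.2 in siCdc73. All loss libraries were far above all reference libraries, and siSki8 lay between the siCtrl libraries, giving 4.78 as log2 fold change (standard error 0.42, edgeR adjusted p = 0.000786). Ercc6l2, a relative of the Snf2 remodelling proteins, was at 121 and 127 CPM in siCtrl and 90.5 in siSki8. In siPaf1 it was at 15 and 12.9 and in siCdc73 at 33.1 and 23.9, with -2.46 as log2 fold change (standard error 0.35, edgeR adjusted p = 0.00158). Ngef, a guanine nucleotide exchange factor, was nearly level over the reference, with 54.5 and 51.6 CPM in siCtrl and 54 in siSki8. It was at 7.62 and 5.93 CPM in siPaf1 and 12.4 and 14 in siCdc73 (log2 fold change -2.42, standard error 0.35, edgeR adjusted p = 0.00174). The groups did not overlap for any of these genes, and siPaf1 was below siCdc73 in each batch for Ercc6l2 and Ngef. These markers were set with earlier results of these data known, so their separation and p-values describe the response and do not test it.

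Besides Slc23a3, the raised genes with the widest gap between loss and reference, among those with a mean of at least 50 reads, came from many functions. The gap chose these genes and the lowered genes below, so their separation and p-values are a description. Kdm5b, a demethylase of histone H3K4, was at 50.5 and 47.4 CPM in siCtrl and 43.2 in siSki8, and at 270.1 and 215 in siPaf1 and 265 and 212 in siCdc73 (log2 fold change 2.30, standard error 0.25, edgeR adjusted p = 0.000786). Fos, a subunit of the AP-1 transcription factor, was at 4.47 and 5.05 CPM in siCtrl and 2.04 in siSki8. It reached 22.3 and 25.5 in siPaf1 and 34.1 and 32.6 in siCdc73 (log2 fold change 2.88, standard error 0.42). Gbp2, an interferon-inducible GTPase, went from 1.12 and 3.7 and, in siSki8, 1.89 CPM to 7.62 and 26.9 in siPaf1 and 12.7 and 32.6 in siCdc73. All of its loss libraries stood above all of its reference libraries. Dyrk1b, a kinase known for its part in quiescence and muscle differentiation, was at 13.7 and 18.8 CPM in siCtrl, 20.7 in siSki8, 48.2 and 93.5 in siPaf1 and 72.9 and 136 in siCdc73 (log2 fold change 2.38).

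Sema6c, a transmembrane semaphorin, was at 9.78 and 12.6 and 5.97 CPM in the siCtrl and siSki8 libraries and between 43.6 and 63.5 in the loss libraries. Ch25h, which makes 25-hydroxycholesterol, was at 4.19 and 5.72 and 4.07 CPM in the reference and at 18 and 35.6 in siPaf1 and 18 and 29.4 in siCdc73. Both were separated in all 7 libraries, with log2 fold changes of 2.45 and 2.47. Prss27, a serine protease, had 0.28 and 2.02 CPM in siCtrl and 6.55 in siSki8, against 7.62 and 32.1 in siPaf1 and 11 and 24.3 in siCdc73. Its siSki8 library was thus also raised over siCtrl (edgeR adjusted p = 0.0476), and its low counts leave its fold change of 3.23 imprecise (standard error 0.58). Dnah10, a dynein heavy chain of cilia, was at 1.96 and 1.01 CPM in siCtrl, 0.873 in siSki8, 30.2 and 32.8 in siPaf1 and 7.89 and 6.06 in siCdc73, so that the subunits agreed in direction and differed in size.

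**Figure D1:**
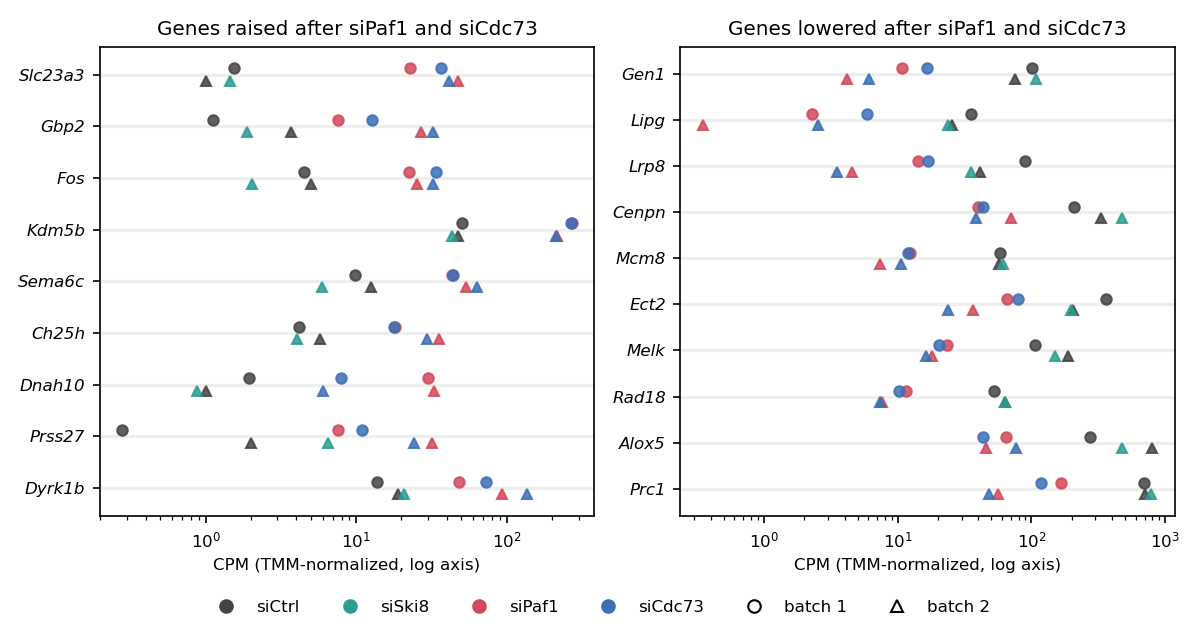
Level of 9 raised and 10 lowered genes among the common genes with the widest within-batch gap, in TMM-normalized CPM on a log axis, with 1 point per RNA-seq library, circles for batch 1 and triangles for batch 2. Points of siPaf1 and siCdc73 lie on one side of siCtrl and siSki8 within each batch, as for Slc23a3, where the reference lies between 1.01 and 1.54 CPM and the loss libraries between 22.9 and 47.8.

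Among the lowered genes with the widest gap were Gen1, Rad18 and Mcm8, with roles in DNA repair, and Cenpn, Ect2, Prc1 and Melk, with roles in dividing cells. Gen1, a resolvase of recombination intermediates, was at 100.2 and 74.7 CPM in siCtrl and 108 in siSki8. It was at 10.8 and 4.19 in siPaf1 and 16.4 and 6.06 in siCdc73 (log2 fold change -3.59, standard error 0.37, edgeR adjusted p = 0.000786). Rad18, a ubiquitin ligase of the bypass of DNA lesions, was at 52.7 and 63.4 and 63.9 CPM in the reference and between 7.34 and 11.5 in the loss libraries (log2 fold change -2.74). Mcm8, a helicase of recombination repair, went from 58.6 and 56.7 CPM in siCtrl and 61.7 in siSki8 to 12.4 and 7.33 in siPaf1 and 11.9 and 10.5 in siCdc73 (log2 fold change -2.53). Melk, a kinase of dividing cells, was at 106 and 186 CPM in siCtrl, 151 in siSki8, 23.3 and 18.1 in siPaf1 and 20.4 and 16.3 in siCdc73 (log2 fold change -2.88). Cenpn, a protein of the centromere, was at 209 and 332 and 475 CPM in the reference and between 38.3 and 70.1 in the loss libraries, with siSki8 the highest library. Genes outside the cell cycle were among them too. Lrp8, a receptor of apolipoprotein E and reelin, was at 89.9 and 41.4 CPM in siCtrl, 35.2 in siSki8, 14.1 and 4.54 in siPaf1 and 16.9 and 3.51 in siCdc73. Lipg, an endothelial lipase, was at 35.1 and 25.4 CPM in siCtrl, 23.7 in siSki8, 2.3 and 0.349 in siPaf1 and 5.88 and 2.55 in siCdc73, the lowest of which is 1 read. Alox5, which starts leukotriene synthesis, was at 274 and 803 CPM in siCtrl and 479 in siSki8, and at 64.4 and 45.7 and 43.7 and 77.2 in the siPaf1 and siCdc73 libraries (log2 fold change -2.98).

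Genes of mitosis were lowered as a group. Of a list of 40, 20 were in the RNA-seq table and all 20 were tested and called lower, beside the 6.92% of all genes, with a median log2 fold change of -2.32 against 0.03 for all genes tested. Their summed level was 8359 and 9251 CPM in siCtrl and 9539.8 in siSki8, and 2313 and 1486 in siPaf1 and 3142 and 1841 in siCdc73. The highest loss library, siCdc73 of batch 1, was thus far below the lowest reference library, siCtrl of batch 1, and siSki8 was the highest of all. Prc1, which bundles the microtubules of the central spindle, was at 694 and 711 CPM in siCtrl, 785 in siSki8, 167 and 55.8 in siPaf1 and 119 and 48.5 in siCdc73 (log2 fold change -3.25, standard error 0.36, edgeR adjusted p = 0.000786). Ect2, which places the cleavage furrow, was at 362 and 205 CPM in siCtrl, 199 in siSki8, 66.1 and 36.3 in siPaf1 and 79.3 and 23.6 in siCdc73 (log2 fold change -2.58). Top2a, the topoisomerase of chromosome segregation, fell from 2450.4 and 2794 and 2599 CPM in the siCtrl and siSki8 libraries to 543 and 358 in siPaf1 and 768 and 502 in siCdc73. By the deposited RPKM, which scales by length, Top2a had the highest level of the list in siCtrl of batch 1 (215 RPKM) and Birc5, a subunit of the chromosomal passenger complex, in siCtrl of batch 2 (402 RPKM). Ccnb2, a mitotic cyclin, was at 447 and 514 CPM in siCtrl, 452 in siSki8, 98.5 and 86.9 in siPaf1 and 115 and 67 in siCdc73 (log2 fold change -2.42). The smallest change of the list was that of Cdc25b (log2 fold change -1.38), a phosphatase that activates cyclin-dependent kinases. In bulk libraries, fewer dividing cells and less RNA of these genes per cell cannot be told apart.

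Genes of DNA replication and repair followed the same course. Of a list of 39, 19 were in the table, and all 19 were called lower, with a median log2 fold change of -1.78. Summed, they stood at 5204 and 6308 CPM in siCtrl, 6907 in siSki8, 1885 and 1594 in siPaf1 and 2219 and 1749 in siCdc73. Rfc5, part of the clamp loader, was at 132 and 96.5 CPM in siCtrl and 107 in siSki8, and at 37.8 and 18.8 and 30.8 and 15 in siPaf1 and siCdc73 (log2 fold change -2.33). Cdc6, which licenses origins, was at 113 and 91.8 CPM in siCtrl, 112 in siSki8, 34.5 and 23.7 in siPaf1 and 36.2 and 17.2 in siCdc73 (log2 fold change -2.06). Rrm2, a subunit of ribonucleotide reductase, was at 845 and 895 and 859 CPM in the reference, 289 and 133 in siPaf1 and 299 and 163 in siCdc73 (log2 fold change -2.17). Uhrf1, which carries DNA methylation through replication, was at 225 and 222 and 164 CPM in the reference, 67.3 and 35.2 in siPaf1 and 68 and 33.8 in siCdc73 (log2 fold change -2.18). All 20 mitosis genes and all 19 replication genes were also called lower when loss was tested against siSki8 alone in a fit with 4 groups, beside 16.2% of all genes. None of them was called between siSki8 and siCtrl by edgeR, where 5.43% of all genes were. At an unadjusted p under 0.05, 2 mitosis and 2 replication genes were higher and none lower in siSki8, and the medians there were 0.29 and 0.32. These comparisons share libraries, and siSki8 has no replicate. Leaving out any 1 library left 17 to 20 mitosis genes called. For replication genes the count was 15 to 19, and 12 without siCtrl of batch 1.

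About as many genes of the same lists were missing from the RNA-seq table but measured by 3'READS, and these took no part in the counts above. The lists were set with earlier results of these data known, so their members are not an independent sample. Of 19 such mitosis genes, 19 lay below 0 and 16 were called lower, with a median log2 fold change of -1.89. Of 20 such replication genes, 20 lay below 0 and 12 were called, with a median of -1.83. Among 12579 genes tested by 3'READS, 3.39% were called lower and the median was 0.09. Cdk1, the mitotic cyclin-dependent kinase, had 904 and 3719 reads in siCtrl, 2567 in siSki8, 256 and 498 in siPaf1 and 131 and 654 in siCdc73, although siPaf1 and siCdc73 of batch 2 were the deepest of these libraries. Anln, an anillin of the cleavage furrow, had 109 and 434 reads in siCtrl and 380 in siSki8, against 17 and 74 in siPaf1 and 11 and 69 in siCdc73 (log2 fold change -3.01). Pcna, the sliding clamp, and Dut, which hydrolyses dUTP, were replication genes that did not pass the test, at log2 fold changes of -0.52 and -0.53 (edgeR adjusted p = 0.424 and 0.220). With the members in the RNA-seq table included, 38 of 39 mitosis genes lay below 0 by 3'READS. The exception was Kif18a, called lower in RNA-seq (log2 fold change -2.45) but at 1.18 by 3'READS, where it was not called. It had 7 and 7 reads in siCtrl, 6 in siSki8, 13 and 13 in siPaf1 and 14 and 32 in siCdc73. The 3'READS counts were less stable than those of RNA-seq. Without siCtrl of batch 1 the numbers of lowered mitosis and replication genes over both kinds of members fell from 35 and 26 of 39 to 4 and 2. Without siCtrl of batch 2 they fell to 15 and 5.

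Since these genes moved together, their promoters were searched for short motifs, in 300-base windows from 250 bases before to 50 after the start of transcription (RefSeq, GRCm38.p6), on both strands. A window was found for 369 lowered, 309 raised and 5232 of all tested genes. The letters of E2F sites, TTCCCGC or TTGGCGC, were in 19.5% of the windows of lowered genes, 11.3% of raised genes and 11.9% of all tested genes. They were in 12 of the 32 lowered mitosis and replication genes with a window (37.5%), and in 6.93% of all 27025 promoters. The letters TTTGAA of the cell cycle homology region (CHR) were in 20.9% of lowered, 15.2% of raised and 11.7% of tested genes, and in 13 of the 32 (40.6%). They were in 18.1% of all 27025 promoters, near the share of the lowered genes. CCAAT was in 46.1% of lowered, 41.1% of raised and 38.9% of tested genes, in 16 of the 32 (50.0%) and in 37.9% of all promoters. TATAAA was rarer in lowered (4.61%) than in raised (9.71%) or tested genes (7.19%). AP-1 letters, TGANTCA, were in 4.85% of raised genes and 5.06% of all tested genes. Also searched were TGACGTCA, GGAATG and CAGCTG, in 5.15%, 9.76% and 11.9% of lowered genes. Their shares were 4.53%, 9.71% and 15.9% of raised and 2.98%, 11.5% and 14.5% of tested genes. A match is a description of the letters in the window. For Gen1, Rad18, Melk, Lrp8 and Alox5, no E2F, CHR or CCAAT letters were found or no window was available. Examples are shown from 4 of the lowered genes named above, each with 30 bases around a match and with the matched letters in capitals, 5' to 3' on the strand of the gene.
Cenpn, E2F letters: aaagcacctcgGCGGGAAccgctgcagaga
Cenpn, CHR letters: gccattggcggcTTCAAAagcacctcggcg
Mcm8, E2F letters: gcagaagcgcgtcatagacGCGCCAAaaaa
Ect2, E2F letters: gttgacagagcGCGCCAAtcagcatggctc
Ect2, CHR letters: ccgtttaccggaTTTGAAacacactcacaa
Prc1, CHR letters: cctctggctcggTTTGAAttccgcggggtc
The Cenpn matches (chr8:116921735-116921764 and chr8:116921719-116921748, plus strand) began at base 6 and base -9 from the start of transcription, and that of Mcm8 (chr2:132816161-132816190, plus strand) at base 39. Those of Ect2 (chr3:27153862-27153891 and chr3:27153975-27154004, minus strand) began at bases -2 and -114, and that of Prc1 (chr7:80294434-80294463, plus strand) at base -5. Some of the matches are on the strand opposite to the gene and so read as the reverse complement. In Ect2 the E2F letters overlapped a CCAAT.

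The other gene lists held fewer calls, to be read beside the 6.06% of all genes called higher and 6.92% called lower by edgeR. Of 15 genes of muscle differentiation tested, 2 rose (3 by DESeq2) and none fell. Myl1, a fast myosin light chain, was at 4.47 and 14.6 CPM in siCtrl, 9.75 in siSki8, 7.91 and 41.5 in siPaf1 and 11.6 and 102 in siCdc73 (log2 fold change 2.00, edgeR adjusted p = 0.0151). Tnnt3, a fast troponin T, was at 1.96 and 9.75 CPM in siCtrl, 11.4 in siSki8, 6.18 and 35.9 in siPaf1 and 4.8 and 18.5 in siCdc73 (log2 fold change 1.40). For both genes batch 2 lay above batch 1 in every condition, and loss and reference separated within a batch but not across batches. Of 6 genes of myoblast identity, Cdh15 and Vcam1, an adhesion receptor, fell. Cdh15 was at 789.9 and 1015 CPM in siCtrl and 967 in siSki8, and at 351 and 626 in siPaf1 and 321 and 401 in siCdc73 (log2 fold change -1.06). None of 12 p53 targets was called by edgeR, with 3 higher at an unadjusted p under 0.05 and 2 called higher by DESeq2. Cdkn1a, an inhibitor of cyclin-dependent kinases, was at 379 and 280.4 CPM in siCtrl, 223 in siSki8, 581 and 191 in siPaf1 and 951 and 860.2 in siCdc73, so that siPaf1 of batch 2 lay below the reference of its batch.

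Of 11 targets of YAP and TEAD tested, 3 rose by edgeR and by DESeq2, beside 6.06% of all genes: Amotl2, which binds YAP, Dlc1, a GTPase-activating protein, and Ajuba, a LIM protein. Amotl2 was at 313 and 159 CPM in siCtrl, 97.4 in siSki8, 659.6 and 428 in siPaf1 and 779 and 532 in siCdc73 (log2 fold change 1.62, edgeR adjusted p = 0.00481). Of 17 Wnt signalling genes tested, Fzd2, Wisp2 and Lgr5 were called higher by edgeR and none lower, beside 6.06% and 6.92% of all genes. At an unadjusted p under 0.05, 7 of the 17 were higher and none lower, and the median log2 fold change was 0.55. Fzd2, a Wnt receptor, was at 220.1 and 195 CPM in siCtrl, 222 in siSki8, 588 and 515 in siPaf1 and 357 and 431 in siCdc73 (log2 fold change 1.15). Lgr5, a receptor of R-spondins, was at 0 in siCtrl and 0.146 CPM in siSki8 and reached 9.06 and 9.07 in siPaf1, but was at 0.31 and 0 in siCdc73, which is why it is not counted as common. Of 8 immediate early genes tested, Fos rose by edgeR, as given above, and 2 genes by DESeq2, while Egr2, Jund and Fosl1 were not called by edgeR (log2 fold changes -1.46, 0.85 and -0.66).

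Of 15 genes of the extracellular matrix, Tnc, tenascin C, and Fbn1, fibrillin 1, fell by edgeR, beside 6.92% of all genes. At an unadjusted p under 0.05, 7 of the 15 were lower and none higher, and the median log2 fold change was -0.73. By 3'READS, 18 of 27 genes of the list lay below 0, with a median of -0.29. There edgeR called 1 higher and none lower, and Tnc and Fbn1 were not called. Tnc was at 1891 and 1524 CPM in siCtrl, 1084 in siSki8, 672 and 661 in siPaf1 and 174 and 90.3 in siCdc73 (log2 siPaf1 minus siCdc73 2.39, edgeR adjusted p = 2.37e-08). Among 10 genes of cholesterol synthesis and uptake, 1 was called lower by edgeR and 2 by DESeq2, and none higher, with a median log2 fold change of -0.55. In siSki8, 4 of these genes were called higher than in siCtrl and none lower, and the median was 0.91. The 15 matrix genes moved in siSki8 too, with 4 called higher and 3 lower than in siCtrl and a median of -0.34. Of all genes, 2.93% were called higher and 2.50% lower there. Mthfd2, a mitochondrial folate enzyme, was the only one of 9 genes of the integrated stress response that edgeR called, and it fell (log2 fold change -1.12), while DESeq2 called 1 higher and 2 lower. Grem1, a BMP antagonist, was the only one of 7 BMP and Id genes called by edgeR, while DESeq2 called 1 higher and 2 lower. It was at 339 and 55.2 CPM in siCtrl, 37.3 in siSki8, 80.2 and 12.2 in siPaf1 and 151 and 22.3 in siCdc73 (log2 fold change -1.47). Id3 was at 916 and 198 CPM in siCtrl but 108 in siSki8, and at 922 and 1092 and 852 and 591 in siPaf1 and siCdc73, and was not called (edgeR adjusted p = 0.0927). None of 8 interferon-stimulated genes was called by edgeR or DESeq2, and 0 had an unadjusted p under 0.05. None of 7 elongation factors was called by edgeR, but 3 were higher at an unadjusted p under 0.05 and 3 were called higher by DESeq2. Of the remaining Paf1 complex subunits tested, Ctr9 was at 172 and 211 CPM in siCtrl, 273 in siSki8, 296 and 328 in siPaf1 and 438 and 445 in siCdc73. Ctr9 was not called by edgeR (log2 fold change 0.84, edgeR adjusted p = 0.065), while DESeq2 called it higher.

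In the machinery that cleaves and polyadenylates RNA, 1 of 10 genes rose and 1 fell by edgeR, beside 6.06% and 6.92% of all genes. DESeq2 called 1 higher and 2 lower, and at an unadjusted p under 0.05 in edgeR 1 was higher and 3 were lower. Pcf11, a termination factor, was at 208 and 222 CPM in siCtrl, 250.0 in siSki8, 100.4 and 97 in siPaf1 and 153 and 98.6 in siCdc73 (log2 fold change -1.05, edgeR adjusted p = 0.0251). Cstf2t, a paralogue of the cleavage factor CstF64, was at 107 and 58.5 CPM in siCtrl, 57.5 in siSki8, 204 and 118 in siPaf1 and 219 and 125 in siCdc73 (log2 fold change 1.03). Of 5 genes of the Ski complex and the exosome, 2 exosome subunits fell, beside 6.92% of all genes, Exosc8 by 1.51 and Exosc1 by 1.15 on the log2 scale. Exosc8 was at 129.7 and 331 CPM in siCtrl, 336 in siSki8, 57.4 and 114 in siPaf1 and 44.6 and 102 in siCdc73.

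**Figure D2:**
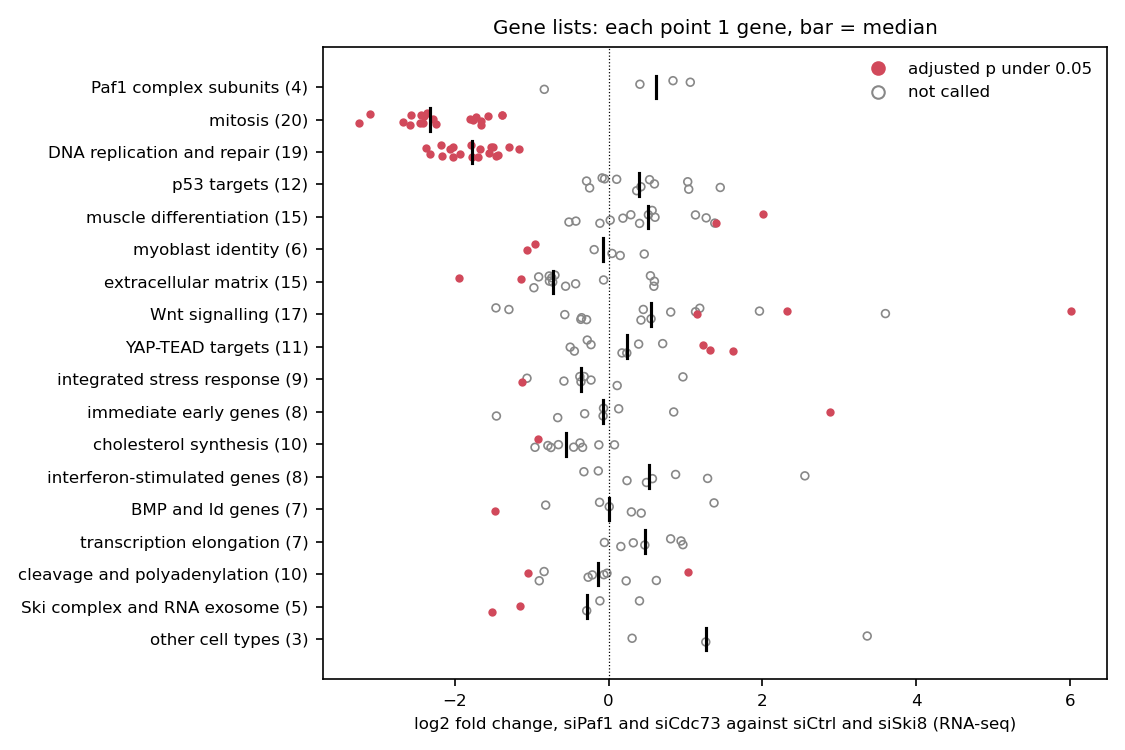
Log2 fold change of loss against reference in RNA-seq for the tested genes of each list, with the number tested in parentheses, filled points for genes called at an adjusted p under 0.05 and a bar at the median of the list. All points of mitosis and DNA replication and repair are filled and lie below 0, with medians of -2.32 and -1.78, while the other lists have few filled points and, apart from the 3 markers of other cell types, which lie above 0, lie on both sides of 0.

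The place of siSki8 was described in the fit with 4 groups. Of the 390 raised genes, 336 were called higher against siSki8 alone, and of the 450 lowered genes 419 were called lower, beside 12.4% and 16.2% of all genes. Between siSki8 and siCtrl, 10 of the raised genes were called higher and 2 lower, together 3.08%, and 6 of the lowered genes were called higher and none lower, 1.33%. Of all genes tested, 2.93% were called higher and 2.50% lower in siSki8, together 5.43%. The rule for the common response uses the same loss libraries and has both siCtrl and siSki8 as reference. That choice raises the shares called against siSki8 and holds down those between siSki8 and siCtrl, so both are a description and nothing is read from them about the genes. The medians of siSki8 against siCtrl were -0.07 over the raised and 0.06 over the lowered genes.

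A few genes were not absent from the siSki8 response. Mttp, which loads lipid onto lipoproteins, was at 18.4 and 21.2 CPM in siCtrl, 54.4 in siSki8, 86.9 and 76.8 in siPaf1 and 158 and 139 in siCdc73, so siSki8 was above siCtrl too (edgeR adjusted p = 0.00399). S100a6, a calcium-binding protein, was at 587 and 2098 CPM in siCtrl, 3926 in siSki8, 3618 and 6026 in siPaf1 and 3161 and 10429 in siCdc73. In both genes siSki8 lay between the control and the loss libraries of batch 2. Other genes moved the opposite way. Mxd4, a MAX-binding repressor, was at 33.5 and 17.3 CPM in siCtrl and 6.26 in siSki8, but at 66.6 and 40.5 in siPaf1 and 128 and 107 in siCdc73. Prl2c2, a proliferin, was at 67.6 and 196 CPM in siCtrl, 989.7 in siSki8, 11.1 and 9.07 in siPaf1 and 35.3 and 59.4 in siCdc73. Proliferins are near-identical copies, so reads of Prl2c2 and Prl2c3 may have been split or lost in mapping and their values are uncertain. The siSki8 differences of Mxd4 and Prl2c2 were called (log2 -1.65 and 2.64, edgeR adjusted p = 0.0124 and 6.04e-06), each resting on 1 siSki8 library.

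Some common genes differed between the subunits, though a smaller share than of all genes. Between siPaf1 and siCdc73, 22.1% of the raised and 20.2% of the lowered genes were called, beside 28.2% of all genes. The call between loss and reference counts differences between the subunits as spread. That holds these shares down, so nothing is read from them about the genes. Genes that moved in opposite directions with the subunits cannot enter the common response. Actc1, cardiac actin, was at 5.73 and 21.9 CPM in siCtrl and 19.1 in siSki8, at 21.7 and 93.5 after siPaf1 and 0.619 and 2.87 after siCdc73. Axin2, a target and inhibitor of Wnt signalling, was at 2.8 and 3.36 CPM in siCtrl, 2.62 in siSki8, 45.4 and 92.8 in siPaf1 and 0.929 and 1.6 in siCdc73. Both were called between the subunits (log2 siPaf1 minus siCdc73 5.03 and 5.71, edgeR adjusted p = 2.74e-10 and 4.25e-11) and not between loss and reference. Creld2, a protein of the endoplasmic reticulum, went the other way, at 373 and 442 CPM in siCtrl, 500.5 in siSki8, 224 and 227 in siPaf1 and 765 and 1422 in siCdc73. Car5b, a mitochondrial carbonic anhydrase, was at 82.2 and 56.8 CPM in siCtrl, 63.9 in siSki8, 16.5 and 8.72 in siPaf1 and 105 and 69.3 in siCdc73. Sulf2, which trims heparan sulphate, was at 216 and 96.9 CPM in siCtrl and 244 and 94.9 in siPaf1, and was low both in siSki8 (24.4) and in siCdc73 (33.7 and 7.66).

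The 3'READS libraries, which the rule did not use, gave the same direction for most of the common genes. Of 322 raised genes tested there, 317 lay above 0, and of 412 lowered genes, 400 lay below 0. Their medians were 1.40 and -1.32, beside 0.09 for all genes tested. By the call, 86 of the raised (26.7%) and 171 of the lowered genes (41.5%) passed in the same direction and none in the opposite direction by edgeR or DESeq2, nor at an unadjusted p under 0.05, beside 2.65% and 3.39% of all genes (6.03% in either direction). Groups did not overlap within a batch for 238 of the raised (73.9%) and 332 of the lowered genes (80.6%), beside 16.5% and 17.4% of the 5610 genes tested in both assays. Read from the other side, the shared genes were 60.6% of the 142 raised and 79.5% of the 215 lowered 3'READS calls among genes tested in both. The assays used the same conditions and batch numbers, and whether they used the same RNA is not stated. Slc23a3 was at 1.8 and 0.189 CPM in siCtrl and 1.02 in siSki8 by 3'READS, and at 27.4 and 13.8 in siPaf1 and 37.1 and 21.7 in siCdc73 (log2 fold change 4.57, edgeR adjusted p = 0.00512). Kdm5b was at 5.55 and 9.26 CPM in siCtrl, 6.94 in siSki8, 21.4 and 39.2 in siPaf1 and 14.8 and 46.2 in siCdc73 (log2 fold change 2.13). Gen1 was at 20.4 and 30.6 CPM in siCtrl, 36.9 in siSki8, 4.39 and 1.32 in siPaf1 and 3.91 and 3.41 in siCdc73 (log2 fold change -3.26, edgeR adjusted p = 0.00826). Groups were again separate for these genes, and Ngef fell by 2.25 (edgeR adjusted p = 0.0403) while Ercc6l2 and Lipg were not in the 3'READS comparison.

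In 3'READS the siPaf1 library of batch 2 stood apart. It held 271 genes with at least 30 reads and more than 20 times the level of every other library, whereas no other library held any. Only 1 of these genes was a common raised gene. Without that library, 121 of 304 raised and 199 of 409 lowered genes were called in the same direction. Without siCtrl of batch 1 the counts were 2 of 328 and 5 of 412, and without siCtrl of batch 2 they were 4 of 322 and 23 of 409. They were 48 of 300 and 92 of 401 without siSki8, and 50 of 324 and 113 of 413 without siCdc73 of batch 1.

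**Figure D3:**
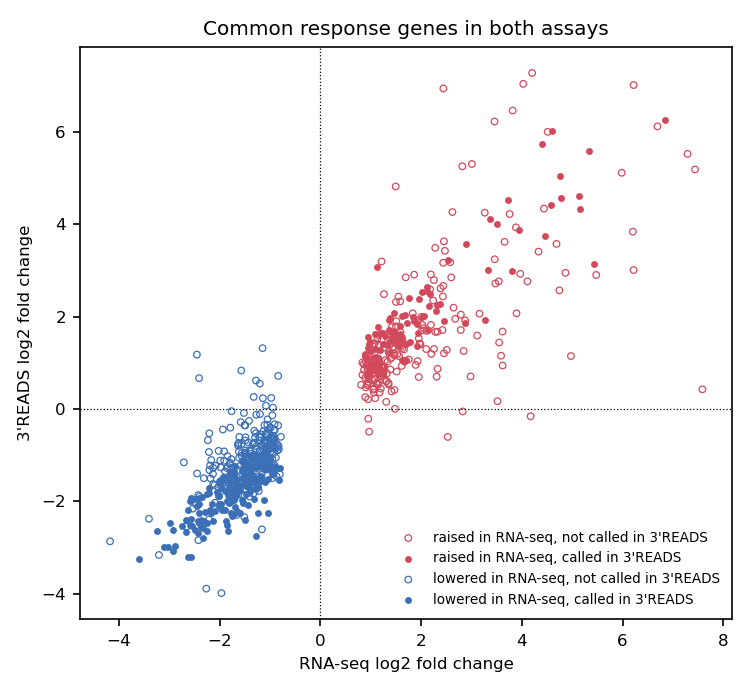
Log2 fold change of loss against reference in RNA-seq (x axis) and 3'READS (y axis) for the common genes tested in both, with red points for raised and blue for lowered genes, filled where the 3'READS call was made. Points lie in the upper right and lower left corners apart from 5 raised and 12 lowered genes, and filled points are 86 raised and 171 lowered genes.

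Polyadenylation at sites upstream of the 3'-most exon (CDS-APA), in introns or inner exons, was then compared in the common genes. It yields shortened transcripts that lack the end of the coding sequence. Over all 1766 genes tested, the median log2 change of upstream to 3'-most exon reads was 0.94 with loss, 68.6% of the genes lay above 0, and 17.5% were called up and 2.21% down (19.7% in all). Of the 67 lowered genes tested, 18 were called up (26.9%) and 1 down, with a median of 1.6. Of the 44 raised genes tested, 10 were called up (22.7%) and 2 down, with a median of 1.27. The share of genes above 0 was 77.6% for the lowered and 63.6% for the raised genes, the second below that of all genes, and none of these differences from all genes was tested.

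The upstream sites of 4 of these genes are printed to show what the reads end on, with the last 30 bases before cleavage on the strand of the gene (mm9) and a polyadenylation signal in capitals.
Clip1 intron: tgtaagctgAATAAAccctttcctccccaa
Ptrf intron: ctggtcATTAAAggtaactctggaaaccaa
Alox5 intron: attttaacTATAAAagtgatacataatcta
Man2a1 intron: tccatAATAAAcgtggagttctgaggtgaa
Clip1, a microtubule plus-end protein and a raised gene, had a site at chr5:124071012-124071041 (minus strand) with 0 and 2 reads in siCtrl, 3 in siSki8, 39 and 215 in siPaf1 and 37 and 142 in siCdc73. Its 3'-most exon had 674 and 628 reads in siCtrl, 649 in siSki8, 960 and 1190 in siPaf1 and 512 and 1440 in siCdc73 (log2 change of the ratio 5.45, standard error 0.76, edgeR adjusted p = 3.84e-05). Ptrf, which forms caveolae, had a site with ATTAAA at chr11:100824083-100824112 (minus strand) with 5 and 21 reads in siCtrl, 14 in siSki8, 311 and 483 in siPaf1 and 272 and 730 in siCdc73 (log2 change 3.18). In these raised genes siSki8 stayed with siCtrl at the upstream site.

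In 3 lowered genes the upstream site gained reads while the end of the gene lost them. Alox5 had a site with TATAAA at chr6:116398029-116398058 (minus strand) with 4 and 14 reads in siCtrl, 13 in siSki8, 52 and 35 in siPaf1 and 17 and 30 in siCdc73. Its 3'-most exon had 368 and 1006 reads in siCtrl, 687 in siSki8, 107 and 122 in siPaf1 and 40 and 175 in siCdc73 (log2 change of the ratio 4.32, standard error 0.67, edgeR adjusted p = 9.37e-05). Man2a1, a mannosidase of the Golgi, had 0 upstream reads in both siCtrl libraries and 1 in siSki8, against 5 and 16 in siPaf1 and 11 and 65 in siCdc73, at chr17:64986042-64986071 (plus strand). Mbnl2, a splicing regulator, had 0 and 1 upstream reads in siCtrl, 0 in siSki8, 5 and 29 in siPaf1 and 23 and 70 in siCdc73. The 3'-most exon of Man2a1 had 90 and 332 reads in siCtrl and 173 in siSki8. It had 52 and 134 in siPaf1 and 14 and 97 in siCdc73. That of Mbnl2 had 32 and 320 reads in siCtrl and 207 in siSki8. In siPaf1 it had 15 and 186, and in siCdc73 1 and 128. The exception was Gas2l1, a linker of actin and microtubules, whose 3'-most exon had 0 and 8 reads in siCtrl, 11 in siSki8, 63 and 84 in siPaf1 and 15 and 33 in siCdc73. Its 3 upstream sites had 137 and 331 reads in siCtrl, 257 in siSki8, 55 and 182 in siPaf1 and 27 and 130 in siCdc73, for a log2 change of -4.48 (edgeR adjusted p = 0.000860). Which part of the fall in coding-region reads of these genes goes with the upstream sites was not tested.

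**Figure D4:**
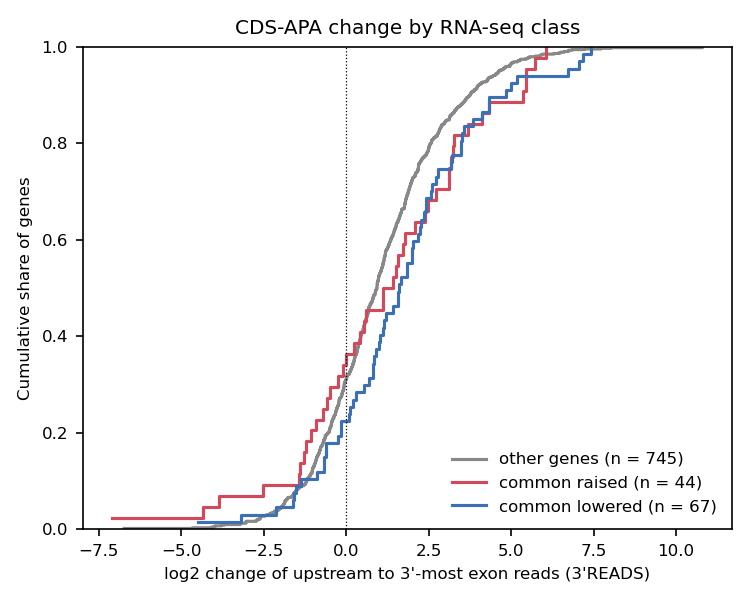
Cumulative share of genes by the log2 change of upstream to 3'-most exon reads in 3'READS, for common raised, common lowered and the other genes tested in both assays. The curves lie mostly right of 0, with medians of 1.27 for 44 raised and 1.6 for 67 lowered genes beside 0.93 for the 745 other genes.

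Raised genes were shorter and lowered genes longer than the genes tested, given here as a description. In the mm9 annotation (GENCODE M1), the 361 raised genes with a match had a median span of 14.5 kb and 8 introns, the 426 lowered genes 30.2 kb and 11 introns, and the 6154 matched tested genes 24.5 kb and 9 introns. Slc23a3, on the minus strand at chr1:75122117-75130464, has 11 introns, and Kdm5b, at chr1:136456748-136529454 on the plus strand, has 27. Among lowered genes, Prc1 lies at chr7:87439336-87461145 on the plus strand with 14 introns and Gen1 at chr12:11246547-11272593 on the minus strand with 13. Genes over 100 kb were 9.70% of the raised, 11.5% of the lowered and 13.3% of all tested genes.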

How the data were processed

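RNA-seq and 3'READS libraries of C2C12 myoblasts were grouped by their labels. After rRNA removal and strand-specific library preparation, the authors mapped RNA-seq reads to mm9 with bowtie2 and deposited raw counts per RefSeq transcript, over coding regions for protein-coding genes, together with RPKM values computed by the authors. For 3'READS the authors deposited counts of poly(A) site supporting reads per site, mapped in the same way. Versions are not given in the sources used here. Columns of the authors' own comparisons were not used, and 0 per-sample columns were left unmatched.

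Counts were fitted in R 4.3.3 with edgeR 4.0.16 (TMM, its filter on low counts, quasi-likelihood test, batch as a block, prior count of 2 for log2 CPM), with Benjamini-Hochberg adjustment over all features tested. DESeq2 1.42.0 was an alternative. The 7 libraries formed 2 classes, or 4 groups where siSki8 or a single subunit was tested. The coefficient of variation between libraries was 0.334 and 0.179, as the first counts differences between the knock-downs as spread. The labels give the batch, and differences between batches correlated across genes between groups (r = 0.62, 0.748 and 0.633). CDS-APA was tested as an isoform by loss interaction where the mean was 20 reads or more per library, without sites that held under 5% of a gene's reads. The tests were also run on simulated data with known changes. In those data siPaf1 and siCdc73 did not differ, unlike in the real libraries, and no conclusion is drawn from them. RNA-seq gene reads ranged from 2796693 to 8160386 and 3'READS reads from 5302728 to 14340927 per library.

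The genes compared and the lists were chosen with earlier results of these data known. Named genes were the siRNA targets, the markers, the 10 common genes in each direction with the widest within-batch gap at a mean of at least 50 reads, up to 4 genes of smallest p per list, up to 3 per direction where siSki8 or the subunits differed most, and up to 4 per class for CDS-APA. Irx3, Anln, Cdk1, Pcna, Dut, Birc5, Cdc25b and the genes at the threshold were chosen after their values were seen. Some genes and a site that the rule takes in are not reported here. Alternatives were other scalings and filters, DESeq2, a stricter threshold, another transcript, no batch block and each library left out.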

Additional observations from a re-analysis of the deposited data

Results flagged for a closer look

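Among the named common genes, which by definition moved in one direction with both subunits, 15 differed in size between siPaf1 and siCdc73 in the test of that difference (edgeR, 4 groups, adjusted p under 0.05), a call made for 28.2% of all genes tested. The log2 difference, siPaf1 minus siCdc73, was positive among raised genes for Dnah10 (2.16) and Enc1 (1.23), whose levels were higher in siPaf1. It was negative for Mttp (-0.86), Mxd4 (-1.18), Myl1 (-0.99) and Ptrf (-0.73), which were raised further in siCdc73. Among lowered genes, Ercc6l2 (-1.03), Ngef (-0.92), Lipg (-1.51), Grem1 (-0.89), Prl2c2 (-2.05) and Prl2c3 (-2.58) were lower in siPaf1, and the 2 proliferins share reads with near-identical copies. Tnc (2.39), Fbn1 (0.72) and Exosc1 (0.85) were lower in siCdc73. For Pcf11 one of the 4 loss libraries lay far from the others, siCdc73 of batch 1 at 153 CPM beside 97.0 to 100.4, a ratio of gap to range of 0.925. How often chance gives such a ratio among the genes looked at was not tested.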

How the results depend on the processing

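The number of calls depended on the processing. The direction of the common genes is largely fixed by how they were chosen and is not counted here. The median log2 fold change of all genes, 0.029, was 0.024 and 0.076 under other scalings and 0.109 with no filter on low counts. Of 61 common genes taken in by the rule for named genes, 29 were called in every fit that left out 1 library. Without the batch block, the raised and lowered calls between loss and reference were 108 and 199, as were those of the common response. They were 0 and 0 in each of the comparisons of loss with siSki8, siSki8 with siCtrl and siPaf1 with siCdc73, with 501 and 622, 160 and 201, and 453 and 406 genes at an unadjusted p under 0.05 in edgeR. In 3'READS without the block, 35 and 71 genes were called, with 7 and 39 of the common genes and 13 mitosis and 5 replication genes, and 19 genes were called down for CDS-APA. DESeq2 gave 644 raised genes in RNA-seq and 930 and 777 genes in 3'READS, and no filter on low counts gave 516 raised genes in 3'READS. A fit with 4 groups gave 1273 and 1372 genes, and an adjusted p under 0.01 gave 85 and 182. Keeping all sites left 18 genes called down for CDS-APA. Except for the larger spread estimated from 2 classes (0.334 against 0.179), the cause of these differences was not tested.

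Leaving out 1 library at a time gave 60 to 427 raised and 112 to 473 lowered genes, with 60 to 426 and 112 to 473 in the common response. The ranges were 411 to 1217 and 525 to 1395 against siSki8, 72 to 588 and 48 to 455 between siSki8 and siCtrl, and 254 to 1045 and 219 to 1121 between siPaf1 and siCdc73. In 3'READS they were 8 to 757 and 17 to 589, and for CDS-APA 157 to 319 and 12 to 48. Mitosis genes ranged from 17 to 20 in RNA-seq and 4 to 35 in 3'READS, and replication genes from 12 to 19 and 2 to 28. Common genes called in 3'READS ranged from 2 to 121 raised and 5 to 199 lowered. The lowest counts came without a siCtrl library in most of these. Comparisons with siSki8 could not be made without its single library. Signs turned for genes that were not called. Krt19 was at -0.0036 without the block, and in the fit with 4 groups Actc1 was at -0.38 and Paf1 at -0.59. Over the fits that left out 1 library, the log2 fold change ran from -0.73 to 1.62 for Actc1, -0.32 to 1.00 for Creld2, -0.97 to 0.86 for Paf1, -0.63 to 0.026 for Skiv2l2 and -1.65 to 0.11 for Sulf2. Depth limits siPaf1 and siCdc73 of batch 2 most in RNA-seq, and 90 raised genes had under 10 reads in every reference library.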

Other observations

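Several genes of the lists with fewer calls in RNA-seq were measured by 3'READS but not in the RNA-seq table, and are named here because they were called there (edgeR adjusted p under 0.05, beside 2.65% of genes called higher and 3.39% lower). They were chosen after their values were seen. Junb, a partner of Fos in AP-1, had 2 and 8 reads in siCtrl, 8 in siSki8, 24 and 41 in siPaf1 and 20 and 77 in siCdc73 (log2 fold change 2.66). Nr4a1, an immediate early nuclear receptor, had 58 and 157 reads in siCtrl, 214 in siSki8, 170 and 776 in siPaf1 and 264 and 785 in siCdc73 (log2 fold change 1.72). With Fos, these were the 3 of 17 immediate early genes called higher in 3'READS, and none was called lower. Six4, a homeobox gene of muscle precursors, had 6 and 11 reads in siCtrl, 11 in siSki8, 43 and 133 in siPaf1 and 19 and 102 in siCdc73 (log2 fold change 2.66). Lats2, a kinase that inhibits YAP, rose by 1.11, and Id2, an inhibitor of basic helix-loop-helix factors, by 1.15 on the log2 scale.

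Rtf1, a subunit linked to the Paf1 complex, had 191 and 390 reads in siCtrl, 410 in siSki8, 442 and 1138 in siPaf1 and 270 and 1262 in siCdc73 (log2 fold change 0.99, edgeR adjusted p = 0.0495). Col12a1, a collagen, had 281 and 227 reads in siCtrl, 99 in siSki8, 2734 and 4221 in siPaf1 and 587 and 863 in siCdc73, so that siPaf1 was far above siCdc73. In cholesterol metabolism, Sc4mol, a sterol oxidase, fell by 1.47 on the log2 scale. Sc4mol had 657 and 1283 reads in siCtrl, 1887 in siSki8, 398 and 845 in siPaf1 and 253 and 540 in siCdc73.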
